A study of Drosophila melanogaster with 2 samples.

Results

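In Drosophila melanogaster embryos, GFP-tagged CG6683 gave 295 ChIP-seq peaks inside later introns of protein-coding genes. They were taken from the 2964 peaks on the nuclear arms of the authors' optimal list, of which they made up 9.95% (95% Clopper-Pearson interval 8.90 to 11.1). A peak was a member if its summit lay more than 500 bp from every protein-coding transcript start, in no UTR or coding exon, inside a protein-coding gene, and inside no first intron of any protein-coding transcript. Positions are on dm6. Both samples came from 1 group: whole embryos aged 6 to 24 h, male and female pooled, of a transgenic line that stably expresses CG6683 with GFP at its C-terminus. Chromatin was sheared to fragments of 200 to 800 bp, the tagged protein was pulled down with an anti-GFP antibody, and the DNA that came with it was sequenced (ChIP-seq). The samples are biological replicates numbered 2 and 3. Pooled whole embryos hold many cell types, 1 transgenic line was used, and all samples carry the tag, so what CG6683 itself contributes to a peak and what the tag or open chromatin contributes cannot be told apart.

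An intron is the part of a transcript that is spliced out before translation. In the compact fly genome enhancers, which are bound by transcription factors and act on a promoter at a distance, often lie in introns. An enhancer inside 1 gene can act on that gene or on a neighbour, so a host gene here is only the gene whose intron holds the summit.

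The strongest members show the sequence at these sites. The first lines give 30 bases around the match nearest the summit of the word AAATAT or its reverse complement, which reads ATATTT. Of the 28 motifs searched it was the 1 called as more frequent in members than in other later-intron candidates. It had been picked out from these same peaks before, and the call was lost among candidates of like GC content. The capitals mark the word. All are read on the plus strand of the Release 6 genome as held by RefSeq, and they are the members of highest signal off arm 2 right that hold the word.
CG11050, chr2L:6612674-6612703: caatttgcatgcATATTTgcttaaaattaa
osa, chr3R:17700577-17700606: ctgcttctataaAAATATattagtttattc
Kdm2, chr3R:9057557-9057586: gataataggataAAATATaaatggatatgg
osa, chr3R:17704454-17704483: cagagtaatcatATATTTctttcaaagaat
Dys, chr3R:19499231-19499260: cctaacttaacaAAATATtcgggcattttt
Msp300, chr2L:5145755-5145784: cattttgttgggATATTTctaaagggcttt
bbx, chrX:21366570-21366599: gtaaataatcttATATTTttgaaacacagt
spen, chr2L:166706-166735: cgagtatcttgcAAATATaccgcacgttgt
The next lines show the 30 bases at the summit of the strongest members that lack the word within 100 bp, so nothing is in capitals.
Trl, chr3L:14759511-14759540: tttccattggctagtttttatagtgcgttt
Raf, chrX:2297677-2297706: ttttgttggttttcttctctcatttttccc

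Before the values, the replicate labels need a remark. On arm 2L, where most coordinates are the same on both builds, 5025 of 5185 intervals (96.9%) of the dm6 list labelled replicate 2 were identical to intervals of the dm3 list labelled replicate 3, and 0 to those of the dm3 list labelled replicate 2. Of the dm6 list labelled replicate 3, 4795 of 5465 intervals (87.7%) were identical to the dm3 list labelled replicate 2 and 1 to the dm3 list labelled replicate 3. The replicate numbers are therefore crossed between the builds, and the numbers below are those of the dm6 lists. Read counts are not in the lists, so depth is unknown.

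Later-intron candidates reached the optimal list less often than candidates in first introns or between genes. The authors also deposited a pooled list of candidate peaks of any strength, with 29984 on the arms, of which 9.89% were in the optimal list. Of the 4548 later-intron candidates, 295 were in it, a share of 6.49% (5.79 to 7.24). The share was 9.54% for 768 of 8051 first-intron candidates, with an odds ratio of 0.658 (two-sided Fisher's exact test, adjusted p = 1.06e-08 over 6 tests). It was 8.80% for 321 of 3648 intergenic candidates, with an odds ratio of 0.719 (Fisher's exact test, adjusted p = 0.00026). The strongest 2964 candidates of each replicate list gave the same order for later against first introns. In the list labelled replicate 2 the shares were 5.67% in later introns, 8.89% in first introns and 9.38% between genes. In the list labelled replicate 3 they were 6.77%, 9.70% and 8.18%. Neighbouring peaks are not independent, and these p-values compare sets of positions, not embryos.

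**Figure D1:**
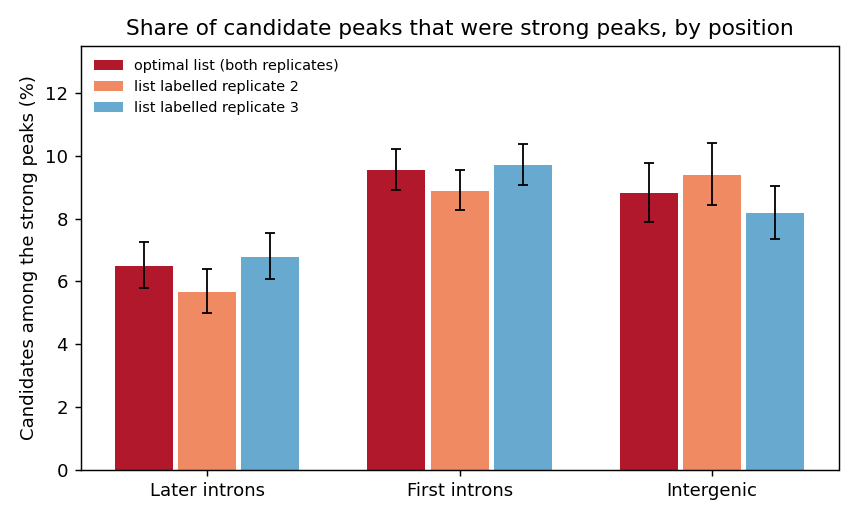
Share of candidate peaks that were in the optimal list, or among the strongest 2964 of a replicate list, for later introns, first introns and intergenic sequence. Bars give the percent and whiskers the 95% Clopper-Pearson interval. In all 3 lists the later-intron bar is the lowest, between 5.67% and 6.77%.

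Signal, the strength that the authors' lists give each peak in units that are not stated, is the value that set the optimal list, so it is given as a description. Over the members the median pooled signal was 247 (quartiles 200.3 and 315, range 171 to 3257). It was 254 in first-intron peaks, 269 in intergenic peaks and 277 in promoter peaks. The members just inside the limit lay in eIF4EHP, a cap-binding protein of the eIF4E family, with 171.1, and in fne, an RNA-binding protein of the ELAV family, with 171.0. The later-intron candidates just below it lay in rdx with 170.3 and in CG45088 with 169.9.

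The 25 members of highest signal lay in 22 genes, and genes of chromatin proteins held the second, the third, the fourth and the sixth of them. The first lay in CG11050, with a pooled signal of 3257, 1473 in replicate 2 and 1812 in replicate 3, and ranked 1 in all 3 lists. It sat in intron 2 of 4, an intron of only 140 bp, 1026 bp from the gene's own start. The second lay in intron 2 of Trl, which encodes the GAGA factor, with 2071 pooled, 770 in replicate 2 and 1329 in replicate 3. The third and sixth both lay in intron 4 of osa, a subunit of the Brahma chromatin remodelling complex. The stronger of these had 1356 pooled, 555 in replicate 2 and 830 in replicate 3, and the other 973, 385 and 590 in the same order. Kdm2, a JmjC histone demethylase, held the fourth, with 1160 pooled, 437 in replicate 2 and 752 in replicate 3, and another with 552 pooled, 228 in replicate 2 and 338 in replicate 3. In each of these genes replicate 3 had the higher value, as it had for most members.

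The fifth peak lay in Raf, the kinase that links Ras to MEK, with 1012 pooled, 478 in replicate 2 and 551 in replicate 3. The seventh lay in intron 16 of Dys, the fly dystrophin, with 824 pooled, 362 in replicate 2 and 462 in replicate 3. The co-activator of Notch, mam, followed with 733 pooled, 266 in replicate 2 and 492 in replicate 3. Msp300, a nesprin that links nuclei to the cytoskeleton, had 715 pooled, 228 in replicate 2 and 485 in replicate 3. Lower in the 25, pooled values were 647 in bbx, an HMG-box protein, 618 in spen, the founder of the Spen family, and 599 in Dad, the inhibitory Smad of the Dpp pathway. They were 590 in JIL-1, a histone H3 kinase, 582 in CG14434, 541 in crp, a bHLH protein, and 515 in the nuclear receptor Hr4. The rest of the 25 had between 467 and 513 and lay in beat-Ib, Raf again, Dhc36C, upSET, shn, Kank, Notch itself (N) and CG1677. Of the 25, 24 were among the strongest 2964 of both replicate lists, and the exception lay in Dad. In 16 of the 25 the nearest protein-coding start was that of the host.

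Replicate 3 held most members in its upper part and replicate 2 fewer, as was also so for first-intron, intergenic and promoter peaks. A candidate of replicate 2 overlapped 288 members and a candidate of replicate 3 all 295. The replicate value of a member is that of the overlapping candidate with the nearest summit, so neighbouring members may share 1 candidate. The ratio of replicate 3 to replicate 2 signal had a median of 1.40 (quartiles 1.14 and 1.79) over the 288, and 1.42 over all optimal peaks with both. The units were not stated to be comparable between the lists. Of the 295, 204 (69.2%) had a summit of the strongest 2964 of replicate 2 within 200 bp, and 253 (85.8%) one of replicate 3. Both held for 174 (59.0%, 53.1 to 64.7), replicate 3 alone for 79 (26.8%), replicate 2 alone for 30 (10.2%) and neither for 12 (4.07%). Replicate 3 alone held for 22.3% of first-intron, 21.2% of intergenic and 17.9% of promoter peaks. In that order replicate 2 alone held for 8.72%, 11.2% and 13.4%, and neither for 2.99%, 1.25% and 2.11%. The share in both was 66.0% in first-intron peaks, with an odds ratio of 0.740 (Fisher's exact test, adjusted p = 0.0575). It was 66.4% in intergenic peaks, with an odds ratio of 0.729 (Fisher's exact test, adjusted p = 0.0664). Neither difference passed the threshold, but with summits up to 500 bp apart counted as shared both did (Fisher's exact test, adjusted p = 0.0211 and 0.048). The strongest 2964 are a cut on signal, and the median pooled signal was 247 in members, 254 in first-intron and 269 in intergenic peaks. Sharing at like signal was not tested. Where a replicate list splits a peak into neighbouring candidates, the nearest summit can be the weaker of them, so a low replicate value is read here only where no strong summit lies within 200 bp. For replicate 2 no strong summit lay that near the 79 members with replicate 3 alone and the 12 with neither. An example of a low replicate 2 value without such a summit was a member in CG32137, with 43.2 in replicate 2 and 209 in replicate 3. The 7 members with no replicate 2 candidate included 1 each in Msp300, the Wnt receptor fz and the Hox gene Antp.

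**Figure D2:**
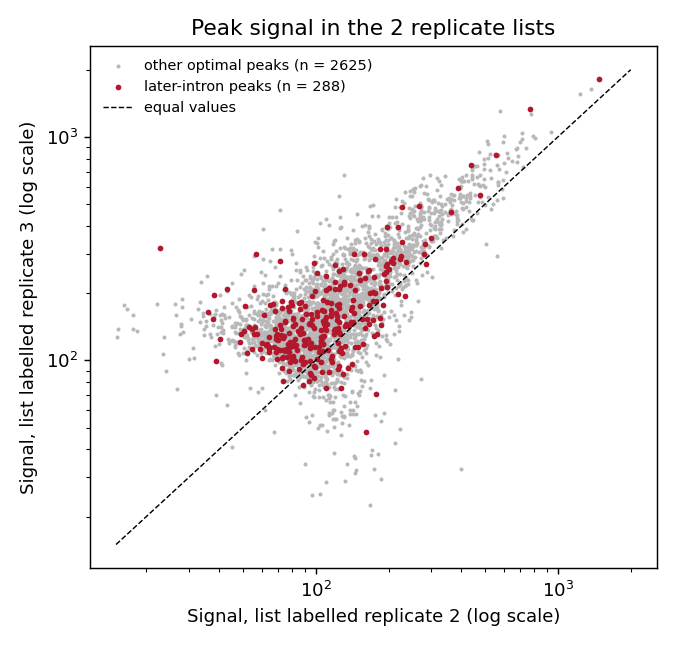
Signal of each optimal peak in the list labelled replicate 2 (horizontal, log scale) and in the list labelled replicate 3 (vertical, log scale). Red points are the 288 later-intron peaks with a candidate in both lists, grey points are the other 2625 optimal peaks, and the dashed line marks equal values. Most red points lie above the line and within the grey cloud.

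The 295 members lay in 198 host genes, which is 17.5% of the 1132 genes with a later-intron candidate. There was 1 peak in 138 genes, 2 in 41, 3 in 11, and 4 or more in 8. Members that lay within 1000 bp of the next formed 17 runs of 2 or 3 peaks, 36 members in all, and 259 stood alone. Some summits lay closer than the longest fragments of 800 bp, such as those at 35725 and 35928 bp from the 5′ end of shn. Others were at 13669 and 13879 bp in rdx and at 7034 and 7235 bp in CG14434. Whether such neighbours are separate sites was not tested, so counts of peaks per gene may count 1 site more than once. Another optimal peak of any class lay within 5000 bp of 146 members (49.5%). This share was not computed for the other classes, so it does not show whether members cluster more than other peaks.

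Raf held the most, with 8 peaks in its intron 2 of 43637 bp. They lay between 0.91 and 34.0 kb from the 5′ end of the gene, 6 of them within 8.59 kb of it, and their pooled signal ran from 177 to 1012. In rdx, an adaptor of a Cul3 ubiquitin ligase that acts on the Hedgehog effector Ci, 6 peaks of 174 to 423 lay in intron 2 of 52543 bp. The 5 of rdx nearest the 5′ end fell between 13.7 and 19.3 kb, and 1 lay at 46.9 kb, 1795 bp from another start of rdx. Both genes thus had most of their peaks in a stretch of a few kilobases in the 5′ part of the gene. In rdx, however, only the peak at 19.3 kb was among the strongest of both replicate lists. In Raf all peaks but those at 5.91, 22.1 and 34.0 kb were.

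Genes of growth-factor signalling and patterning were among the others. The Ets factor pnt, which acts downstream of the EGF receptor, held 5 peaks of 179 to 454, all in intron 3 between 10.4 and 19.6 kb from the 5′ end. Homothorax (hth), a homeodomain partner of the Hox proteins, held 5 peaks of 174 to 263, spread over 5 different introns between 41.8 and 119 kb. The phosphatase gene puc, which restrains JNK, held 4 peaks of 247 to 462. The zinc finger gene shn, a partner of the Smads in Dpp signalling, held 4 of 246 to 490 at 35725 to 38006 bp from its 5′ end. The nearest start to these 4 was another start of shn itself, at 1184 to 3465 bp. In shn and pnt the peaks lay close together, while in hth they were far apart. Only the pnt peaks at 10.4 and 19.6 kb and the hth peaks at 41.8 and 102 kb were among the strongest of both replicate lists. So were all puc peaks but that at 14.3 kb and all shn peaks but that at 36734 bp.

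The other genes with 5 peaks each, CG14434 and CG1677, lie on the X, and their introns also hold the starts of other genes. In CG14434 the peaks had 185 to 582, and the strongest was 544 bp from the start of CG43736. All 5 were among the strongest of both replicate lists, as were the CG1677 peaks other than those with 194 and 249. All 5 peaks in CG1677 lay in an intron of 73902 bp and had 194 to 467. The nearest start to them was that of unc-119, brk or CBP, at 734 to 3103 bp, while the nearest start of CG1677 was 5903 bp away or more.

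**Figure D3:**
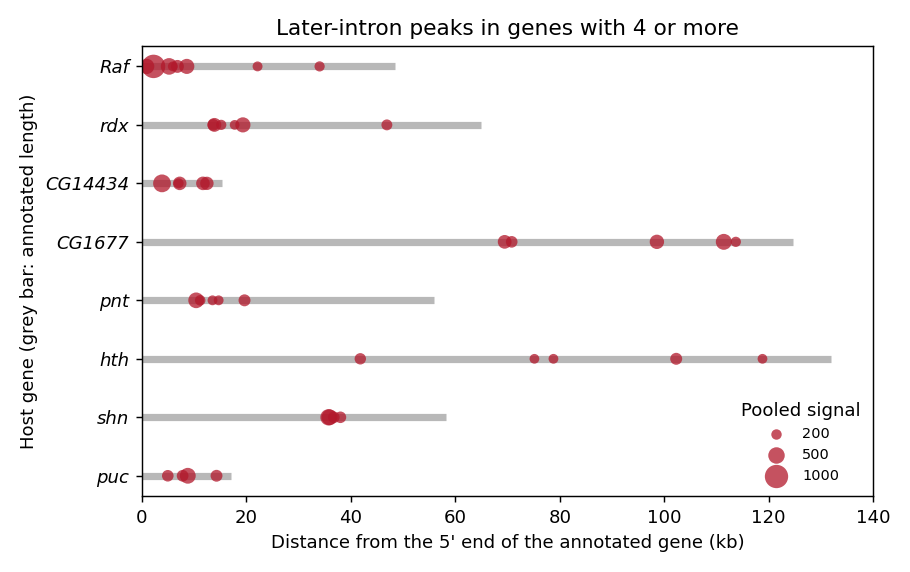
Later-intron peaks in the 8 genes with 4 or more, by distance from the 5′ end of the annotated gene (kb). Grey bars give the annotated length and the area of a red point its pooled signal. In Raf 6 of the 8 peaks sit within 8.59 kb of the 5′ end, while those of hth spread from 41.8 to 119 kb.

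Host genes more often had an optimal peak at their own promoter. This was so in 71 of 198 hosts (35.9%, 29.2 to 43.0) and in 240 of 934 genes with later-intron candidates only (25.7%, 22.9 to 28.6), with an odds ratio of 1.62 (Fisher's exact test, adjusted p = 0.00984). Hosts were longer, with a median of 33096.5 bp against 11779 bp, and had a median of 7 later-intron candidates against 1. Among genes with at least 5 candidates, a comparison chosen after seeing the data, the shares were 36.8% of 133 hosts and 32.3% of 127 other genes, an odds ratio of 1.22 that did not pass (Fisher's exact test, adjusted p = 0.515). Trl, Kdm2, mam, Msp300, rdx and shn had a promoter peak, and Raf, pnt, hth and puc had none.

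The 9 lists of genes were read against the 17.5% of all genes with a later-intron candidate that were hosts. Hosts were 63 of the 218 such genes in any list (28.9%) and 135 of the 914 in no list (14.8%). The lists are incomplete, so shares and leading hosts hold for the listed genes only and not for a whole class of genes. Lists overlap, and long genes have more candidates, so the median length and the median number of later-intron candidates per gene are given for each list. Ecdysone response genes had 7 hosts of 10 (70.0%, 34.8 to 93.3, median length 63335.5 bp, 13 candidates): Hr4, the receptor EcR with 411, the nuclear receptor ftz-f1 with 310, the kinase Eip63E with 304, tai, Eip75B and E23. Chromatin protein genes had 8 hosts of 17 (47.1%, 22.98 to 72.2, 17084 bp, 2 candidates), with Trl, osa, Kdm2 and, at 375, the Polycomb protein Psc leading. These lists had the highest shares of the 9. The chromatin protein genes also had the shortest median length of the 9, though one above the 11779 bp of genes with later-intron candidates only. Hosts that were not counted among them include JIL-1 with 590 and upSET with 495.

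Axon guidance and adhesion genes had 12 hosts of 33 (36.4%, 52624 bp, 5 candidates), led by beat-Ib with 513, the netrin NetB with 434, the immunoglobulin protein DIP-alpha with 278 and Nrg, the fly neuroglian, with 269. The list of RNA-binding proteins had 9 of 25 (36.0%, 36409 bp, 3 candidates), led by how with 303, but also counts egr, a TNF ligand that was listed there by mistake, with 301. Rbfox1 had 276 and the translational repressor pum 268. The signalling genes listed had 9 of 27 (33.3%, 31034 bp, 4 candidates), led by mam, shn, Notch with 476 and puc. Raf with 1012 and Dad with 599 were not counted there. Developmental transcription factors had 14 of 44 (31.8%, 39816.5 bp, 4 candidates), led by Trl, mam, Hr4 and shn.

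The cytoskeleton and muscle genes listed had 7 of 31 (22.6%, 27856 bp, 2 candidates). They were led by Msp300, the polarity protein gene sdt with 283, Zasp52 of the Z-disc with 272 and the scaffold gene dlg1 with 242. Dys, with 824, was not counted there. The protein kinases listed had 5 of 31 (16.1%, 24526 bp, 5 candidates), led by msn with 418, Pkn with 374, hppy with 217 and Sik3 with 178. Other kinase genes were hosts but not counted there, among them Raf with 1012, JIL-1 with 590 and Eip63E with 304. The ion channels and neurotransmitter receptors had 1 of 18 (5.56%, 0.141 to 27.3, 49176.5 bp, 2 candidates), the potassium channel Shab with 231 pooled, 77.7 in replicate 2 and 133 in replicate 3. That list had the lowest share of the 9, with an interval that includes 17.5%.

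Few members lay in short introns or near an exon. The host intron had a median length of 12385 bp (quartiles 5183 and 25651), against 10691 bp (3367 and 23401) for the 4166 later-intron candidates that overlap no optimal peak, which is the comparison set used from here on. With 1 member per host gene the median was 10780.5 bp, close to that of the candidates. Introns over 1000 bp held 97.3% of members and 87.4% of candidates. The intron of 140 bp in CG11050 was the shortest that held a member. An exon lay within 200 bp of 12 members (4.07%, 2.12 to 6.998) and of 14.5% of candidates, and the median distance to an exon was 2394 bp against 1826 bp. Intron 2 held 162 members (54.9%, 49.0 to 60.7) and 45.5% of candidates, and the last intron 10.2% and 11.4%. The nearest protein-coding start was at a median of 4895 bp (quartiles 2141 and 9334) against 5302.5 bp, and was one of the host's own in 207 members (70.2%) and 66.6% of candidates. A non-coding gene covered the summit of 16 members (5.42%) and 4.51% of candidates, and 1 member lay in a transposable element.

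**Figure D4:**
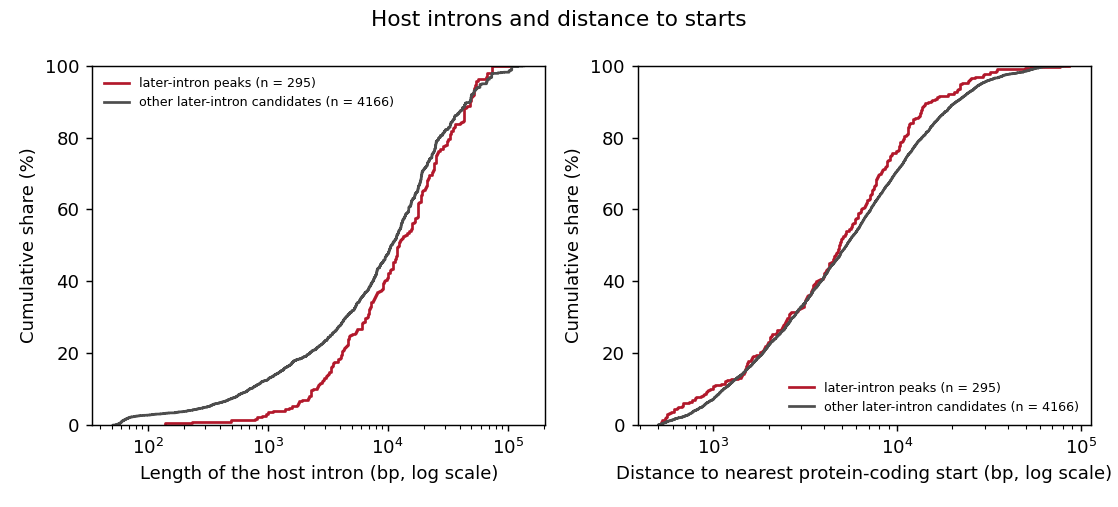
Cumulative share of later-intron peaks (red, n = 295) and of other later-intron candidates (grey, n = 4166) by length of the host intron (left) and by distance from the nearest protein-coding start (right), both in bp on log scales. Short introns are rarer among the peaks, with 97.3% of them and 87.4% of candidates in introns over 1000 bp, while the curves for distance lie close together.

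The X chromosome held 77 of the 295 members (26.1%, 21.2 to 31.5) and 882 of the 4166 candidates (21.2%), an odds ratio of 1.32 that did not pass (Fisher's exact test, adjusted p = 0.0575). The X held 16.9% of the total later-intron length, and against that share the excess passed (exact binomial test, adjusted p = 0.000174). That test counts each peak as independent, while the X genes Raf, CG14434 and CG1677 alone held 8, 5 and 5 members. The excess with 1 member per gene was not tested. Per Mb of later intron there were 15.1 members on X, 12.2 on 2L, 8.33 on 3R, 8.09 on 3L and 7.85 on 2R. Of the first-intron peaks 19.9% lay on X, and of the intergenic peaks 11.2%. On chromosome 4, which is small and rich in heterochromatin, there was no member (0 of 295, upper bound of the Clopper-Pearson interval 1.24%) and there were 72 candidates.

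The DNA under the summits was poor in G and C. Within 100 bp of the summit the mean GC content was 34.8% ± 6.50 (SD across 295 peaks) in members and 39.5% ± 7.75 (SD across 4166) in candidates. In equal windows whose centre lay 500 bp away on each side it was 42.1% and 41.4%. GC was lower at the summit than in its own flanks in 235 members (79.7%) and in 56.7% of candidates. In windows of 41 bp the mean of the members was 30.9% at the summit and rose to 45.0% at 200 bp before and 45.1% at 200 bp after it. The candidates had 37.5% at the summit and 41.9% and 42.1% at those distances. First-intron peaks had a mean of 35.1% and intergenic peaks 35.3% within 100 bp, near that of the members. The deposited intervals had a median width of 257 bp in members and 444 bp in candidates, where both quartiles were 444 bp as well. Whether summits are placed less exactly in the candidates, and how far this bears on their GC values, was not tested.

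**Figure D5:**
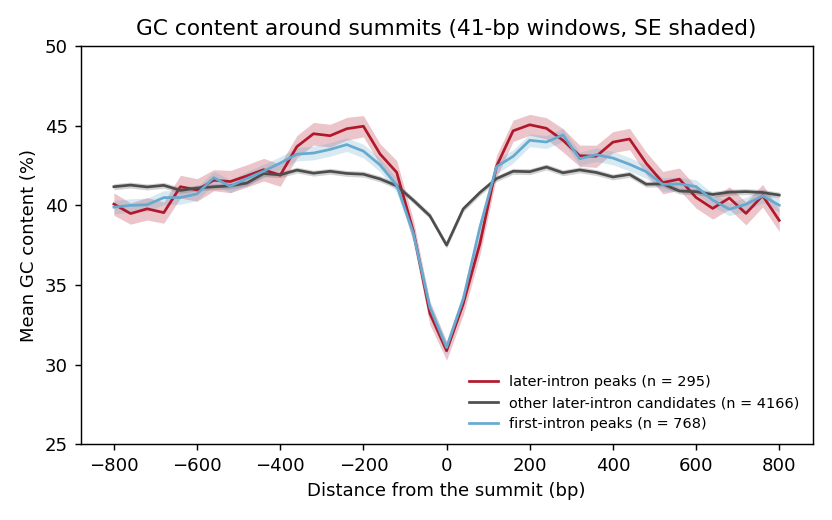
Mean GC content (%) in windows of 41 bp by distance from the summit (bp), for later-intron peaks (red, n = 295), other later-intron candidates (grey, n = 4166) and first-intron peaks (blue, n = 768), with the SE across peaks shaded. The red and blue curves fall to about the same low point at the summit, 30.9% for the red, and stand above the grey one at 200 bp.

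Of 28 short motifs searched within 100 bp of the summit on both strands, 1 (3.57%) differed between members and candidates. The word AAATAT was in 177 members (60.0%, 54.2 to 65.6), 39.7% of candidates and 39.3% of all pooled candidates in windows of the same length. The odds ratio was 2.28 (Fisher's exact test, adjusted p = 4.02e-10). It was in 30.5% of the flanks of the members, in 53.4% of first-intron peaks and in 58.9% of intergenic peaks. The word itself has no G or C: among candidates of like GC content 52.02% held it, and the odds ratio of 1.44 did not pass (Mantel-Haenszel chi-square test, adjusted p = 0.067). This word and ACAGTG had been picked out from these same peaks before, so their shares are no independent evidence. The wider intervals of the candidates also limit the motif comparisons, as the exactness of their summits was not tested.

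Among candidates of like GC content another motif was called instead. GAGAG, the word bound by the GAGA factor that Trl encodes, was in 24.7% of members, 22.2% of candidates and 23.8% of all pooled candidates, and did not pass in the main test (Fisher's exact test, adjusted p = 0.721). At like GC it was in 17.5% of candidates, with an odds ratio of 1.60 (Mantel-Haenszel chi-square test, adjusted p = 0.0489). The forkhead word TGTTTA was in 29.5% of members, 22.0% of candidates and 23.8% of all pooled candidates (Fisher's exact test, adjusted p = 0.0531). ACAGTG was in 15.6%, 10.8% and 11.2% in the same order (Fisher's exact test, adjusted p = 0.151), and in 21.6% of first-intron peaks. The element TATCGATA was in 0 of 295 members, 0.288% of candidates and 1.96% of all pooled candidates.

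The other words did not pass either. They were the trachealess core TACGTG, the Kruppel core AACCC, the grainyhead core ACCGGTT, the tramtrack core AGGATAA, the AP-1 site TGANTCA and the CA repeat CACACACA. Next came the heat shock pair GAANNTTC, the Snail core CAGGTG, the Ets core CCGGAA, the nuclear receptor site AGGTCA, the STAT site TTCNNNGAA and the Tcf core ATCAAAG. The GATA core AGATAA, the Zelda core CAGGTA, the caudal core TTTATNG, the Su(H) site GTGGGAA and the tinman core CACTTGA were also searched. The last were the E-box CAGCTG, the E-box CACGTG, the E-box CATATG, the homeodomain core TAATTA, the BEAF-32 site CGATA and the octamer word ATGCAAAT. N is any base. The BEAF-32 site lies within the element TATCGATA. Their adjusted p-values ran from 0.219 to 1. The tramtrack core, for example, was in 2.71% of members and 1.63% of candidates, and the homeodomain core in 13.6% and 13.4%. A match to a word is a description of the sequence and not a bound site.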

How the data were processed

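Peak lists from ChIP-seq of both replicates were used. Per the file headers and the text deposited with them, the authors called candidate peaks for each replicate and on both pooled, each against a control alignment, and deposited an optimal list after thresholding on the irreproducible discovery rate. Which aligner, peak caller and threshold were used is not given in the sources used here. A peak's signal is the authors' deposited value, whose normalization is not stated. The summit is a position within each deposited interval. Read counts are in none of the lists, so the depth of either sample is unknown and an interval covers variation over peaks or genes alone. The age label was not interpretable as given, so the range in the source name was used.

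Summits on the nuclear arms (2L, 2R, 3L, 3R, X and 4) were annotated with Ensembl release 115 (BDGP 6.54), and sequence was read from the Release 6 genome of RefSeq. The host intron was the shortest one that holds the summit. The comparison set was the later-intron pooled candidates that overlap no optimal peak by 1 bp or more, and 87 others that overlap one were left out of it. These are weaker peaks of the same libraries and not an independent control. Replicate lists were cut at their strongest 2964 candidates, and a summit within 200 bp counted as shared. The tests of shares were Fisher's exact tests, two-sided, adjusted by the Benjamini-Hochberg method over 6 tests and, apart from these, over 28 motifs, with a threshold of 0.05. Comparisons at like GC content used Mantel-Haenszel chi-square tests over bins of 2%. Medians, GC and gene lists are descriptions with no test.

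The members, gene lists, motifs and tests were chosen with earlier results of these data known. Genes named were the hosts of the 25 members of highest signal, genes with 4 or more members, up to 4 hosts per list and the peaks on either side of the signal limit. The remaining ecdysone hosts and the members singled out for differing between replicates were named after their values were seen. Calculations used SciPy 1.17.1, statsmodels 0.14.6, pandas 2.3.3 and NumPy 2.4.6 in Python 3.11.15, with matplotlib 3.10.9 for figures. Alternatives are in the closing section.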

Additional observations from a re-analysis of the deposited data

How the results depend on the processing

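No paired analysis was possible because there is 1 group. Leaving out 1 replicate means using the list of the other alone. The number of later-intron peaks was then 249 to 316, the odds ratio of reaching the strong list 0.616 to 0.676 against first introns and 0.580 to 0.815 against intergenic candidates, and that of a promoter peak at host genes 1.87 to 1.94, all past the threshold. The odds ratio for X was 1.14 to 1.31 and not past it. Mean GC was 34.6% to 37.4%, the median intron length 12335 bp in either list, the median distance to a start 4595.5 to 4760 bp, and 2 motifs were called with either list, the word AAATAT and, also higher, ACAGTG.

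Promoter windows of 200 and 1000 bp gave 356 and 264 members and changed no direction or call in the share in the optimal list. For promoter peaks at host genes the 198 hosts and 934 other genes were kept, and only the promoter distance was changed. The odds ratios were then 1.68 and 1.99, with the same call. At 1000 bp a member that near its host's start itself counted as a promoter peak, so that value is partly built in. Removing non-coding exons and first introns left 287 members and changed no call in the share in the optimal list. The median signal was 246 to 250.4 under these settings. The other results were not run under these settings. The lower share against first introns and intergenic candidates also held for the upper 50% of optimal peaks and at like GC content. Sharing between replicates was lower than in first-intron peaks past the threshold with a distance of 500 bp (odds ratio 0.703) and with any overlap (0.728), and lower than in intergenic peaks with 500 bp (0.709), while at 100 bp neither passed. The odds ratio for a promoter peak fell to 1.22 in genes with at least 5 candidates. That for X rose to 1.74 against intron length, in a test that counts peaks of the same gene as independent. Within 50 bp of the summit 2 motifs were called (AAATAT higher, the Kruppel core lower) and against flanks 5 (AAATAT, the forkhead word, ACAGTG and the AP-1 site higher, the trachealess core lower). GAGAG had an odds ratio of 0.871 within 50 bp, the reverse of the main direction and not past the threshold. Mean GC within 50 bp was 32.2%. The median intron length was 14645 bp with the longest intron and 10780.5 bp with 1 member per gene, near the 10691 bp of the candidates, and the median distance to a start 4750 bp with 1 member per gene. The causes were not tested. Unknown depth limits every list: weaker sites may be missing from either replicate.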
